A study of Caenorhabditis elegans with 9 samples.

Results

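Transcript levels of 10 genes that set sleep and arousal in the nematode Caenorhabditis elegans were followed in 9 libraries of RNA from whole larvae. The genes are nlp-22, pdf-1, pdfr-1, npr-1, flp-18, flp-21, kin-29, hda-4, egl-4 and crh-1. They were chosen by name, from what is known of their roles, with earlier results of these data known. All 10 were found among the 46699 genes of the deposited count table. The series concerns nas-38, a gene for an astacin metalloprotease, which cells release. Larvae of the last larval stage, L4, were collected by hand while asleep in lethargus, the quiet period that precedes each molt. They had been synchronised by bleaching and grown at 20 °C on the bacterial strain OP50, per the labels.

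Animals carrying nas-38(ok3407), strain HBR1010, gave 3 libraries, animals carrying nas-38(tm2655), strain HBR1114, gave 3, and wild type animals, strain N2, gave 3. The authors' deposited tables mark ok3407 as a gain of function and tm2655 as a loss of function. Each allele was studied in 1 strain, and the labels name no other allele in either. The series title spells the allele ok4307, and the spelling of the sample labels is kept here.

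In C. elegans, sleep in lethargus is governed by neuropeptides that act on G-protein coupled receptors, and by kinases that act inside neurons and other cells. The peptide NLP-22 from the RIA interneurons promotes quiescence, whereas the peptide PDF-1 and its receptor PDFR-1 promote arousal, and signalling through NPR-1, the receptor of the peptides FLP-18 and FLP-21, holds arousal down. The salt-inducible kinase KIN-29, which acts on the histone deacetylase HDA-4, and the cGMP-dependent protein kinase EGL-4 both promote sleep, and CRH-1 is the worm's CREB, a transcription factor switched on by cAMP and calcium signals.

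Libraries held 13.8 M to 40.5 M reads in genes (M, megareads), and wild type replicate 1 was the smallest. Levels are given in CPM, the reads of a gene in each megaread, after scaling with edgeR's TMM factors, which match the bulk of genes between libraries. As a check of the labels, nas-38 itself stood at 227, 375 and 337 CPM in the ok3407 libraries, at 10.04, 14.4 and 7.56 CPM in the tm2655 libraries and at 134, 57.9 and 65.1 CPM in the wild type libraries. On the first principal component of all tested genes, with 38.1% of the variance, the ok3407 libraries lay between -70.1 and -49.6 and the tm2655 and wild type libraries between -2.83 and 55.5. Replicate 1 of wild type stood apart on the second component, with 17.7% of the variance, at -62.8 where the other 8 libraries lay between -28.9 and 37.5. Replicate 1 of tm2655 stood apart on the third component, with 11.7%, at 69.5 where the other 8 lay between -20.7 and 6.69. Values of pdfr-1, kin-29 and egl-4 that involve tm2655 are also given without that library, and those of pdfr-1 and egl-4 against wild type also without wild type replicate 1.

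The main result for the 10 regulators was that none passed the test in any of the 3 comparisons. A gene was called changed at an adjusted p under 0.05 in edgeR's quasi-likelihood test over all 16055 genes with enough reads. Of the 10 genes, 9 were tested, and nlp-22 fell below the filter. In ok3407 against wild type 0 of 9 were called, where 6.23% of all tested genes were, and 2 of 9 had an unadjusted p under 0.05, where 23.6% of all tested genes did. In tm2655 against wild type 0 of 9 were called, against 0.00623% of all tested genes, and 0 of 9 had an unadjusted p under 0.05, where 2.47% did. The gene nas-38 itself was not called in this comparison (adjusted p = 0.316, edgeR), although every tm2655 library lay far below every wild type library. It was called in ok3407 against wild type (adjusted p = 0.0265, edgeR). The 0 of 9 in tm2655 against wild type therefore does not show that these genes were unchanged. In ok3407 against tm2655 0 of 9 were called, against 4.02% of all tested genes, and 1 of 9 had an unadjusted p under 0.05, where 17.6% did. DESeq2's Wald test, which called 2033 genes where edgeR called 1001 in ok3407 against wild type, called egl-4 and pdfr-1 there, egl-4 in ok3407 against tm2655 and 0 of the 9 in tm2655 against wild type. Limma-trend on log2 RPKM called 0 of 9 in each. Of the 1001 genes, 534 were higher and 467 lower in ok3407, and with factors from total library size the split was 757 higher and 167 lower.

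The estimated changes of the 9 genes were small. The median of their absolute log2 fold changes was 0.14 in ok3407 against wild type, beside 0.31 over all tested genes, 0.11 in tm2655 against wild type, beside 0.16, and 0.15 in ok3407 against tm2655, beside 0.26. For 7 of the 9 the 95% interval of the change stayed within a 2-fold difference either way in every comparison. The exceptions were the low npr-1 and flp-21. Groups were fully separated, with every library of one above every library of the other, for 2 of 9 genes in ok3407 against wild type, where 28.8% of all tested genes were. They were separated for 1 of 9 in tm2655 against wild type, against 6.47% of all tested genes, and for 2 of 9 in ok3407 against tm2655, against 23.4%. The authors' deposited tables, which list 925 genes for ok3407 and 7 for tm2655 at more than a 2-fold change and a corrected p under 0.05, list 0 of the 10.

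**Figure D1:**
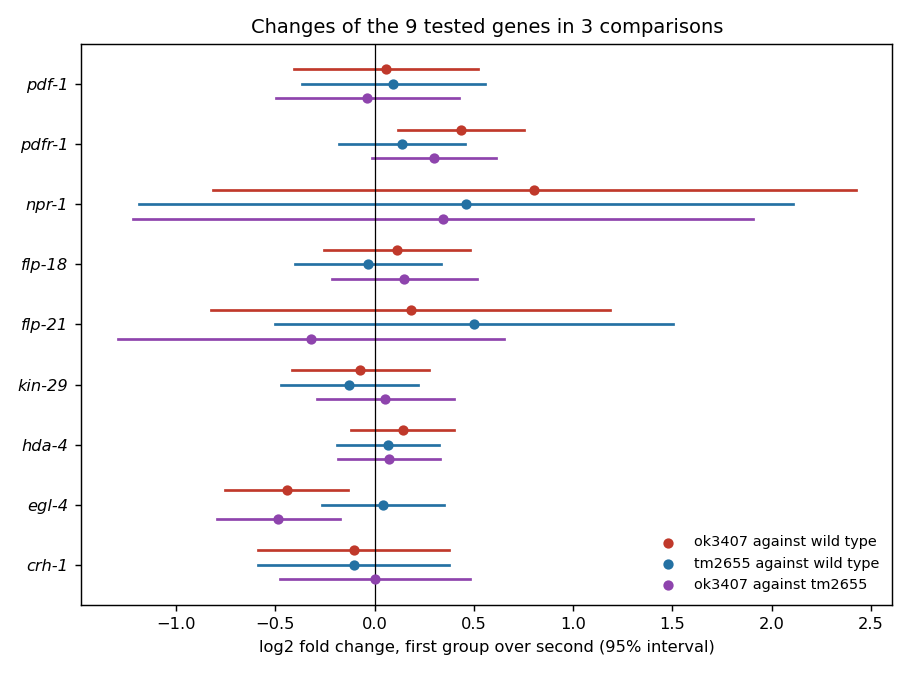
Log2 fold change (x axis) of the 9 tested genes (y axis), first group over second, with points for the edgeR estimate and lines for the 95% interval, in red for ok3407 against wild type, blue for tm2655 against wild type and purple for ok3407 against tm2655. The egl-4 and pdfr-1 intervals for ok3407 against wild type leave out 0, from -0.75 to -0.13 and from 0.12 to 0.75, and the intervals of npr-1 are the widest.

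Per coding length, egl-4 was by far the most abundant of the 10. Levels between genes are compared in the authors' RPKM, reads in exons per kilobase and per megaread. The gene egl-4 averaged 102 ± 12.3 RPKM over the 9 libraries, above 92.2% of tested genes, and its range did not meet that of the gene next to it, pdf-1, at 24.7 ± 4.98 RPKM (SD, n = 9 each). Then came flp-18 at 20.9 ± 3.15, kin-29 at 19.5 ± 2.11, crh-1 at 16.7 ± 3.28 and hda-4 at 12.3 ± 1.39 RPKM. Each of these neighbours overlapped the next: pdf-1 was above flp-18 in 7 of 9 libraries, flp-18 above kin-29 in 7, kin-29 above crh-1 in 6 and crh-1 above hda-4 in 8. The receptor gene pdfr-1 followed at 7.27 ± 1.56 RPKM, below hda-4 in every library and with ranges apart.

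The peptide gene flp-21 stood at 3.66 ± 1.19 RPKM, below pdfr-1 in each of the 9 libraries although their ranges overlapped. The receptor gene npr-1 averaged 0.333 ± 0.183 RPKM, above 4.14% of tested genes, with its range below that of flp-21. Last was nlp-22, with a mean of 0.0222 RPKM. In every library pdf-1 was above pdfr-1, and flp-18 and flp-21 were above npr-1, so each ligand's transcript was more abundant than its receptor's. The ratio of pdf-1 to pdfr-1 in RPKM had a median of 3.08 in ok3407 (2.50 to 3.43), 3.53 in tm2655 (3.48 to 3.69) and 3.60 in wild type (2.83 to 4.94). Both alleles overlapped wild type. The highest ok3407 ratio lay just below the lowest of tm2655, and how often other gene pairs are so separated was not tested.

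**Figure D2:**
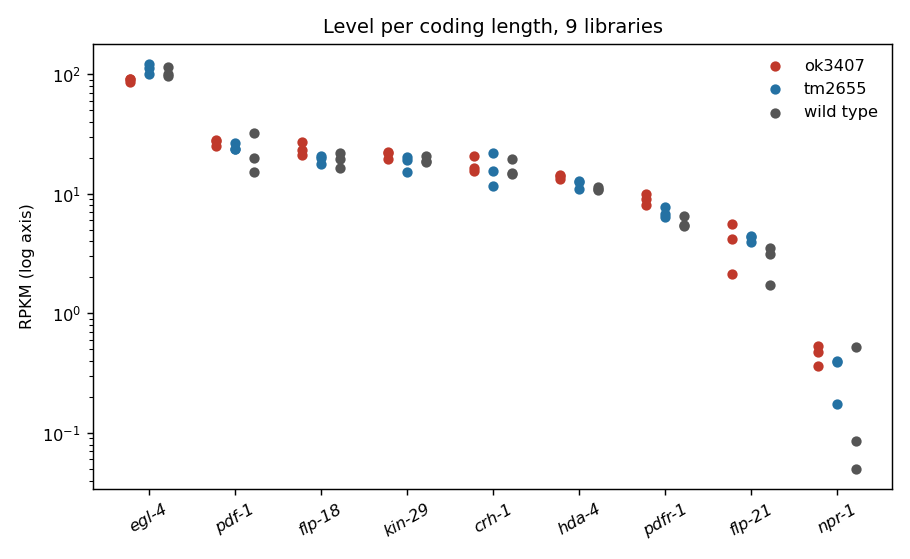
Level per coding length in RPKM (y axis, log scale) of the 9 genes with reads in every library (x axis, in order of their mean), 1 point a library, in red for ok3407, blue for tm2655 and grey for wild type. The gene egl-4 lies near 102 RPKM, a middle set from pdf-1 to hda-4 lies between 10.7 and 32.4 RPKM, and npr-1 lies at or below 0.529 RPKM.

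Neither arousal gene passed the test. The gene pdf-1 (WBGene00020317, chromosome III, 6910087 to 6912481 as deposited), which encodes the arousal peptide PDF-1, had 15.5, 13.1 and 15.3 CPM in ok3407, 15.4, 14.5 and 15.1 CPM in tm2655 and 12.8, 18.6 and 10.6 CPM in wild type. Wild type held both the highest and the lowest library, and its coefficient of variation was 29.3%, beside 8.93% in ok3407 and 2.83% in tm2655. For its receptor gene pdfr-1 it was 8.57% in ok3407, 5.98% in tm2655 and 3.51% in wild type. The log2 fold change of pdf-1 was 0.06 ± 0.21 (SE, adjusted p = 0.899, edgeR) in ok3407 against wild type, 0.09 ± 0.21 (adjusted p = 0.998) in tm2655 against wild type and -0.04 ± 0.21 (adjusted p = 0.946) in ok3407 against tm2655. The mean of pdf-1 was 14.6 ± 1.30 CPM in ok3407, 14.999 ± 0.424 CPM in tm2655 and 14.0 ± 4.10 CPM in wild type (SD, n = 3 each).

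The receptor gene pdfr-1 (WBGene00015735, chromosome III, 6633428 to 6638824) encodes the G-protein coupled receptor through which PDF-1 acts. It had 16.7, 19.4 and 16.8 CPM in ok3407, 15.1, 13.4 and 14.5 CPM in tm2655 and 12.6, 13.5 and 13.1 CPM in wild type. Every ok3407 library was above every tm2655 and every wild type library, as for 14.4% of all tested genes against wild type. Against tm2655, 23.4% of all tested genes were separated in either direction. The tm2655 and wild type libraries overlapped by a narrow margin. The mean of 17.7 ± 1.51 CPM in ok3407 and of 13.1 ± 0.458 CPM in wild type (SD, n = 3 each) gave a fold of 1.35 and a log2 fold change of 0.43 ± 0.14 (95% interval 0.12 to 0.75), with an unadjusted p of 0.0120 and an adjusted p of 0.102 in edgeR's test. Without wild type replicate 1 the log2 fold change was 0.41 (adjusted p = 0.216). In ok3407 against tm2655 the log2 fold change was 0.30 ± 0.14 (adjusted p = 0.310), and without tm2655 replicate 1 it was 0.34 (adjusted p = 0.301). In tm2655 against wild type it was 0.14 ± 0.14 (adjusted p = 0.998), or 0.098 without tm2655 replicate 1 and 0.11 without wild type replicate 1.

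No fit turned the direction of pdfr-1 in ok3407. Over 21 other fits, including those that left out each library, the log2 fold change of ok3407 over wild type ran between 0.34 and 0.65, with adjusted p between 0.0433 and 0.297, and DESeq2's p of 0.0433 was the one under 0.05. Counting exon reads alone it was 0.45 (adjusted p = 0.0973). Reads within introns made up 14.2%, 12.6% and 6.72% of pdfr-1 reads in ok3407, 6.00%, 6.62% and 7.08% in tm2655 and 10.7%, 10.1% and 12.1% in wild type. Over all genes that share was 9.90% to 11.4% in ok3407, 8.78% to 9.31% in tm2655 and 8.83% to 9.34% in wild type. The deposited span of pdfr-1 covers coding sequence only, and in the WBcel235 annotation the gene runs on to 6652083, so upstream reads there were not part of these counts.

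**Figure D3:**
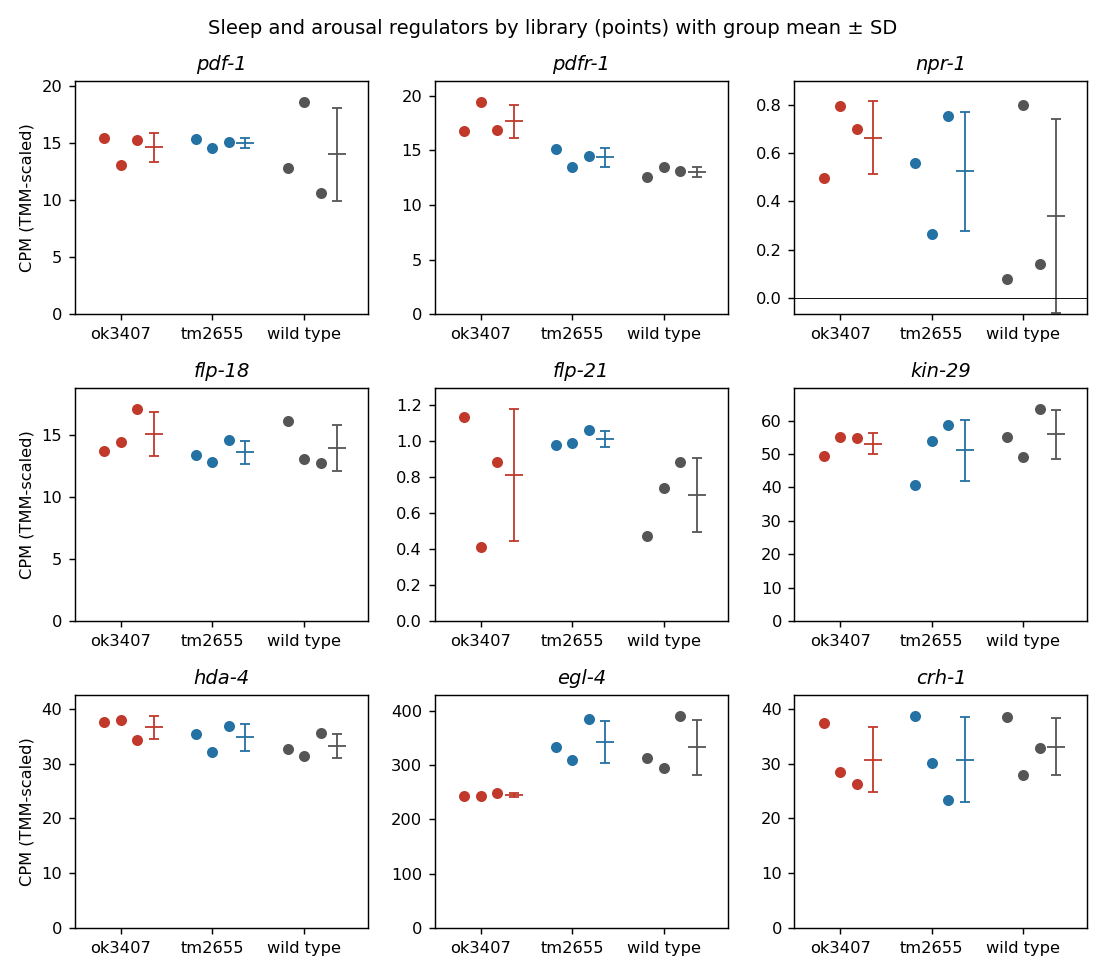
CPM (y axis, from 0 in all panels but npr-1, where an error bar passes below 0) of the 9 genes in each library, with points for replicates 1 to 3 from left to right and bars for the group mean ± SD, in red for ok3407, blue for tm2655 and grey for wild type. In the egl-4 panel the ok3407 points sit at 243 to 250 CPM, below all others, and in the pdfr-1 panel they sit at 16.7 to 19.4 CPM, above all others.

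The NPR-1 branch was near the limit of detection for its receptor. The gene npr-1 (WBGene00003807, chromosome X, 4767264 to 4769974) encodes a receptor of the neuropeptide Y family that keeps animals quiet in lethargus. It gathered 14, 27 and 31 reads in ok3407, 16, 8 and 22 in tm2655 and 1, 27 and 3 in wild type, or 0.497, 0.794 and 0.701 CPM in ok3407, 0.560, 0.264 and 0.752 CPM in tm2655 and 0.0790, 0.800 and 0.139 CPM in wild type. Wild type replicate 2 alone held 27 of that group's 31 reads and was the highest of all 9 libraries, so the groups overlapped. The log2 fold change was 0.80 ± 0.72 (adjusted p = 0.547, edgeR) in ok3407 against wild type, and without wild type replicate 2 it was 2.49 (adjusted p = 0.0829). In tm2655 against wild type it was 0.46 ± 0.74 (adjusted p = 0.998) and in ok3407 against tm2655 0.34 ± 0.70 (adjusted p = 0.849), and the 95% interval of ok3407 over wild type, -0.82 to 2.42, spans a fall and a rise of more than 1.5-fold.

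The ligand genes were split in abundance. The gene flp-18 (WBGene00001461, chromosome X, 3012417 to 3014278) encodes FMRFamide-like peptides that activate NPR-1 and other receptors, and it had 13.7, 14.4 and 17.1 CPM in ok3407, 13.4, 12.8 and 14.6 CPM in tm2655 and 16.1, 13.03 and 12.7 CPM in wild type. All 3 groups overlapped. Its log2 fold change was 0.11 ± 0.16 (adjusted p = 0.721) in ok3407 against wild type, -0.04 ± 0.16 (adjusted p = 0.998) in tm2655 against wild type and 0.15 ± 0.16 (adjusted p = 0.701) in ok3407 against tm2655, all by edgeR.

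The gene flp-21 (WBGene00001464, chromosome V, 7793370 to 7793785), whose peptide is the other NPR-1 ligand, had 32, 14 and 39 reads in ok3407, 28, 30 and 31 in tm2655 and 6, 25 and 19 in wild type. Scaled, these were 1.14, 0.412 and 0.882 CPM in ok3407, 0.979, 0.988 and 1.06 CPM in tm2655 and 0.474, 0.741 and 0.883 CPM in wild type. Every tm2655 library was above every wild type library, as for 3.85% of all tested genes, and ok3407 held both the highest and the lowest library of the 9. In tm2655 against wild type the log2 fold change was 0.50 ± 0.45 (adjusted p = 0.998), in ok3407 against wild type 0.18 ± 0.45 (adjusted p = 0.848) and in ok3407 against tm2655 -0.32 ± 0.43 (adjusted p = 0.764).

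Transcripts of nlp-22 (WBGene00003760, chromosome X, 2341359 to 2342064), which encodes the sleep-promoting peptide NLP-22, were all but missing. There were 2 reads, both in ok3407 replicate 2 and both spanning the junction of its 2 exons, and 0 in each of the other 8 libraries. Over the group and after TMM scaling, 2 reads in ok3407 are 0.0188 CPM (exact Poisson 95% interval 0.00228 to 0.0679). The 0 reads in tm2655 and in wild type allow levels of up to 0.0340 CPM and 0.0442 CPM, where 3 reads over the group would put them. Both limits cover counting error only. A difference between groups was not detectable at this depth. In the deposited gene models nlp-22 lies inside T01B6.1, on the other strand, which averaged 9.57 CPM, and no source used here states whether counting took strand into account. The mRNA of nlp-22 is known to cycle with the molts under the clock gene lin-42, and lin-42 had 33.2 ± 12.7 CPM in ok3407, 33.7 ± 14.4 CPM in tm2655 and 42.2 ± 16.5 CPM in wild type (SD, n = 3 each). The glutamate receptor gene glr-6, a marker of the RIA neuron that makes NLP-22, had 8.72 ± 0.967 CPM in ok3407, 9.35 ± 0.477 CPM in tm2655 and 8.72 ± 1.52 CPM in wild type. The other RIA marker listed, glr-3, was low, with 19, 26 and 20 reads in ok3407, 10, 11 and 16 in tm2655 and 0, 13 and 4 in wild type, or 0.674, 0.764 and 0.452 CPM in ok3407, 0.350, 0.362 and 0.547 CPM in tm2655 and 0, 0.385 and 0.186 CPM in wild type. Every ok3407 library was above every wild type library, as for 14.4% of all tested genes, and the log2 fold change was 1.49 ± 0.69 (adjusted p = 0.227, edgeR).

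Neither the kinase gene nor the deacetylase gene of the KIN-29 branch passed the test. The gene kin-29 (WBGene00002210, chromosome X, 2844811 to 2852387), for the salt-inducible kinase, had 49.4, 55.2 and 54.7 CPM in ok3407, 40.9, 53.96 and 58.6 CPM in tm2655 and 55.1, 49.0 and 63.5 CPM in wild type. The groups overlapped, and the lowest of the 9 was tm2655 replicate 1. Its log2 fold change was -0.07 ± 0.15 (adjusted p = 0.822, edgeR) in ok3407 against wild type, -0.13 ± 0.15 (adjusted p = 0.998) in tm2655 against wild type and 0.05 ± 0.15 (adjusted p = 0.892) in ok3407 against tm2655. Without tm2655 replicate 1 it was 0.01 in tm2655 against wild type and -0.08 in ok3407 against tm2655, both of the opposite sign.

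The gene hda-4 (WBGene00001837, chromosome X, 16729563 to 16743759), for the class IIa histone deacetylase downstream of KIN-29, had 37.7, 38.1 and 34.3 CPM in ok3407, 35.4, 32.2 and 36.9 CPM in tm2655 and 32.6, 31.4 and 35.7 CPM in wild type. Its intervals were the narrowest of the 9 genes. The log2 fold change was 0.14 ± 0.12 (95% interval -0.12 to 0.40, adjusted p = 0.503) in ok3407 against wild type, 0.07 ± 0.12 (-0.19 to 0.33, adjusted p = 0.998) in tm2655 against wild type and 0.07 ± 0.12 (-0.18 to 0.33, adjusted p = 0.800) in ok3407 against tm2655. Of the other 10 genes listed for this branch 0 were called in any comparison. In worms MEF-2 is the transcription factor that HDA-4 holds back, and mef-2, chosen after its values were seen, had 17.2, 16.1 and 14.5 CPM in ok3407, 14.2, 11.6 and 10.8 CPM in tm2655 and 10.8, 11.3 and 11.3 CPM in wild type. The ok3407 libraries were above all others, as for 14.4% of all tested genes against wild type, while 23.4% were separated either way against tm2655. The log2 fold change of mef-2 was 0.52 ± 0.16 (adjusted p = 0.0931, edgeR) against wild type and 0.38 ± 0.16 (adjusted p = 0.249) against tm2655.

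The gene with the most even levels in ok3407 was egl-4 (WBGene00001173, chromosome IV, 1848071 to 1879939, with 8 annotated transcripts), for the cGMP-dependent protein kinase. It had 243, 243 and 250 CPM in ok3407, 333, 310 and 386 CPM in tm2655 and 314, 295 and 391 CPM in wild type. Every ok3407 library was below every library of the other 2 groups, as for 14.5% of all tested genes against wild type and 12.3% against tm2655, and tm2655 and wild type overlapped. The mean was 245 ± 3.95 CPM in ok3407, 343 ± 38.9 CPM in tm2655 and 333 ± 51.0 CPM in wild type (SD, n = 3 each). In ok3407 against wild type the fold was 0.735 and the log2 fold change -0.44 ± 0.14 (95% interval -0.75 to -0.13), with an unadjusted p of 0.00960 and an adjusted p of 0.0914 in edgeR's test. Without wild type replicate 1 the log2 fold change was -0.49 (adjusted p = 0.141). In ok3407 against tm2655 the fold was 0.714 and the log2 fold change -0.49 ± 0.14 (95% interval -0.79 to -0.18, adjusted p = 0.0875), and without tm2655 replicate 1 it was -0.51 (adjusted p = 0.125). In tm2655 against wild type it was 0.04 ± 0.14 (95% interval -0.27 to 0.35, adjusted p = 0.998), or 0.06 without tm2655 replicate 1 and -0.0014 without wild type replicate 1.

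Over the 21 other fits egl-4 kept its direction in both ok3407 comparisons. Against wild type the log2 fold change ran between -0.53 and -0.22 and the adjusted p between 0.0411 and 0.299, and against tm2655 between -0.55 and -0.31 and the adjusted p between 0.0330 and 0.297. DESeq2 gave the values under 0.05, -0.46 (adjusted p = 0.0411) against wild type and -0.49 (adjusted p = 0.0330) against tm2655. Leaving out wild type replicate 3, the highest of that group, gave -0.31 (adjusted p = 0.299). Scaling by total library size gave -0.22, in a fit where the median of all tested genes was 0.24 in place of 0.03, and relative to that median egl-4 stood at -0.46, beside -0.47 with TMM factors. Relative to the same medians pdfr-1 stood at 0.41 in both.

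**Figure D4:**
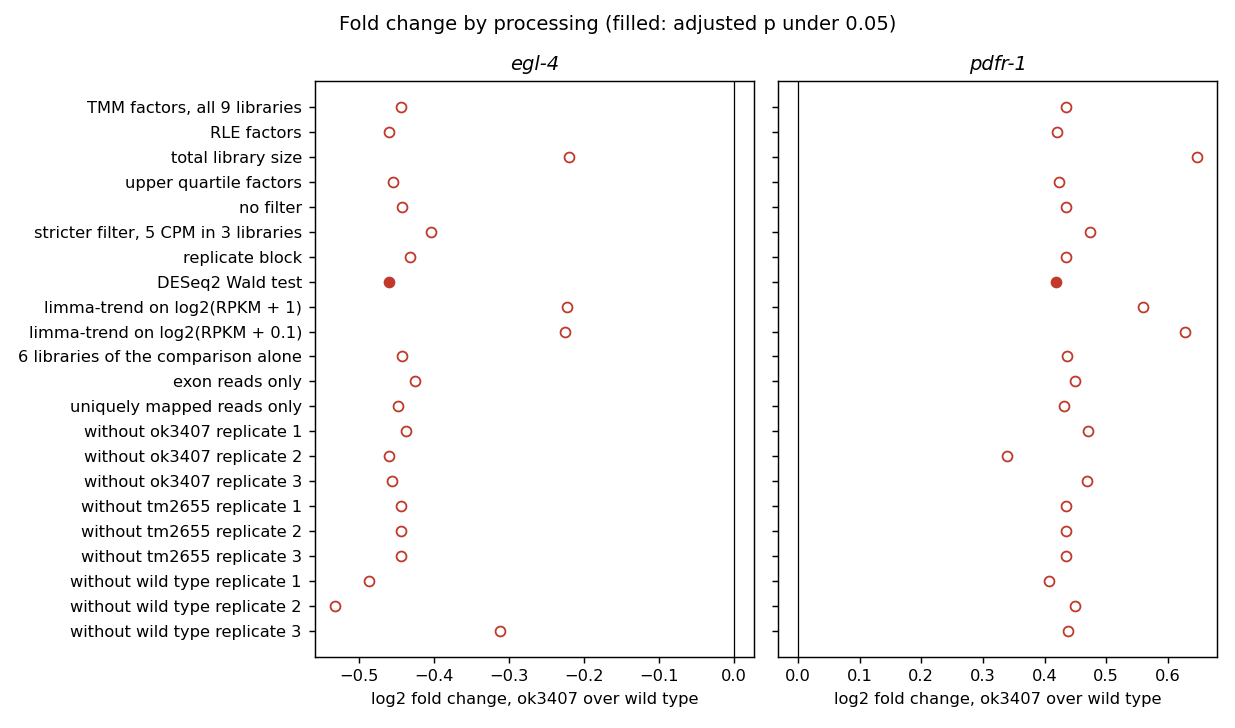
Log2 fold change of ok3407 over wild type (x axis) for egl-4 (left) and pdfr-1 (right) in each fit (y axis), with 1 point a fit, filled where the adjusted p is under 0.05. All 22 points of egl-4 lie between -0.53 and -0.22 and all 22 of pdfr-1 between 0.34 and 0.65, and DESeq2's is the filled one in each panel.

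In worms EGL-4 is made in neurons, body wall muscle, epidermis and intestine, and the libraries come from whole animals, where fewer cells of a type and less RNA per cell cannot be told apart. Markers of muscle, intestine and epidermis differed in ok3407 as well, while those of neurons were not called. The summed level of 9 body wall muscle genes was 9308 to 10573 CPM in ok3407, 12166 to 15492 CPM in tm2655 and 13553 to 17077 CPM in wild type, and 4 of the 9 (unc-54, unc-89, tnt-2 and mlc-1, for muscle myosin, a giant muscle protein, troponin and a myosin light chain) fell in ok3407 against wild type. For 9 intestinal genes it was 3354 to 3663 CPM in ok3407, 5062 to 6419 CPM in tm2655 and 5001 to 7058 CPM in wild type, and 3 of the 9 fell against wild type. For 10 epidermal genes it was 766 to 1723 CPM in ok3407, 2506 to 3130 CPM in tm2655 and 2379 to 3402 CPM in wild type, and 2 of the 10 fell, where 2.91% of all tested genes did. The epidermal genes did not move together: the collagen gene col-19, which fell, had 416 ± 102 CPM in ok3407 and 1820 ± 621 CPM in wild type (SD, n = 3 each) and made up most of the difference in the sum, and the estimates of dpy-7 (3.26), wrt-2 (2.84), bli-1 (0.59) and grd-10 (0.44), none of them called, were positive. Against tm2655, 0 of the 9 muscle, 2 of the 9 intestinal and 2 of the 10 epidermal genes fell in ok3407, where 1.69% of all tested genes did. The median log2 fold change of these lists in ok3407 against wild type was -0.58 for muscle, -0.52 for intestine and -0.40 for epidermis, beside -0.44 for egl-4. In ok3407 against tm2655 it was -0.45 for muscle, -0.64 for intestine and 0.0091 for epidermis, beside -0.49 for egl-4. No marker of any list was at 0, and the part of these tissues in the egl-4 result was not tested.

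Markers of the germ line and of neurons, where most of the 10 genes are known to act, did not pass the test. Pan-neuronal genes summed to 303 to 373 CPM in ok3407, 296 to 304 CPM in tm2655 and 286 to 314 CPM in wild type, and 0 of 12 were called in any comparison, with a median log2 fold change of 0.06 in ok3407 against wild type. Germ line genes summed to 1938 to 2138 CPM in ok3407, 2001 to 2282 CPM in tm2655 and 2162 to 2442 CPM in wild type, with 0 of 10 called. Genes of neuropeptide processing and release summed to 458 to 542 CPM in ok3407, 431 to 457 CPM in tm2655 and 402 to 494 CPM in wild type. Of all tested genes, 3.33% were called higher in ok3407 against wild type and 4.02% were called either way against tm2655. Of these 10 genes 1, pamn-1, was called. This gene, for a peptide-amidating enzyme, rose to 81.4, 54.9 and 40.8 CPM in ok3407, against 18.5, 19.9 and 13.1 CPM in tm2655 and 20.2, 17.1 and 11.6 CPM in wild type. Its log2 fold change was 1.86 ± 0.30 (adjusted p = 0.0114, edgeR) against wild type and 1.78 ± 0.29 (adjusted p = 0.0121) against tm2655. With wild type replicate 3 left out, the first adjusted p was 0.0575, and with tm2655 replicate 3 left out the second was 0.0526, so neither call held there.

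Among the lists of pathway partners, the genes that act around EGL-4 held the only member that passed the test. Across these 7 lists, 68 genes in all, 66 were tested, and 1 rose in ok3407 against wild type, 0 fell, beside 3.33% of all tested genes that rose and 2.91% that fell. In the other 2 comparisons 0 of the 66 were called. The median log2 fold change over the 66 was 0.06 in ok3407 against wild type, beside 0.03 over all tested genes. The gene that rose was pde-2, which encodes a cyclic nucleotide phosphodiesterase that breaks down cGMP, the molecule that activates EGL-4. It had 175, 167 and 169 CPM in ok3407, 126, 115 and 114 CPM in tm2655 and 90.1, 121 and 116 CPM in wild type. Every ok3407 library was above every other library, as for 14.4% of all tested genes against wild type, while 23.4% were separated either way against tm2655. The log2 fold change was 0.64 ± 0.13 (fold 1.56, adjusted p = 0.0222, edgeR) in ok3407 against wild type, 0.52 ± 0.13 (adjusted p = 0.0516) in ok3407 against tm2655 and 0.12 ± 0.13 (adjusted p = 0.998) in tm2655 against wild type.

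The pde-2 call was lost when any of 4 libraries was left out. Without ok3407 replicate 1 the adjusted p was 0.0596, without ok3407 replicate 2 it was 0.0737, without wild type replicate 1 it was 0.0528 and without wild type replicate 3 it was 0.0772, with log2 fold changes of 0.62, 0.63, 0.52 and 0.69. The other 12 genes of the EGL-4 list, which include the guanylyl cyclases daf-11 and odr-1, the phosphodiesterases pde-1, pde-3 and pde-5 and the EGL-4 partners saeg-1 and saeg-2, were not called. The nuclear protein gene saeg-1 had 85.0 ± 6.11 CPM in ok3407 and 86.7 ± 8.83 CPM in wild type (SD, n = 3 each), and saeg-2 had 12.2 ± 0.854 CPM in ok3407 and 12.1 ± 1.64 CPM in wild type.

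**Figure D5:**
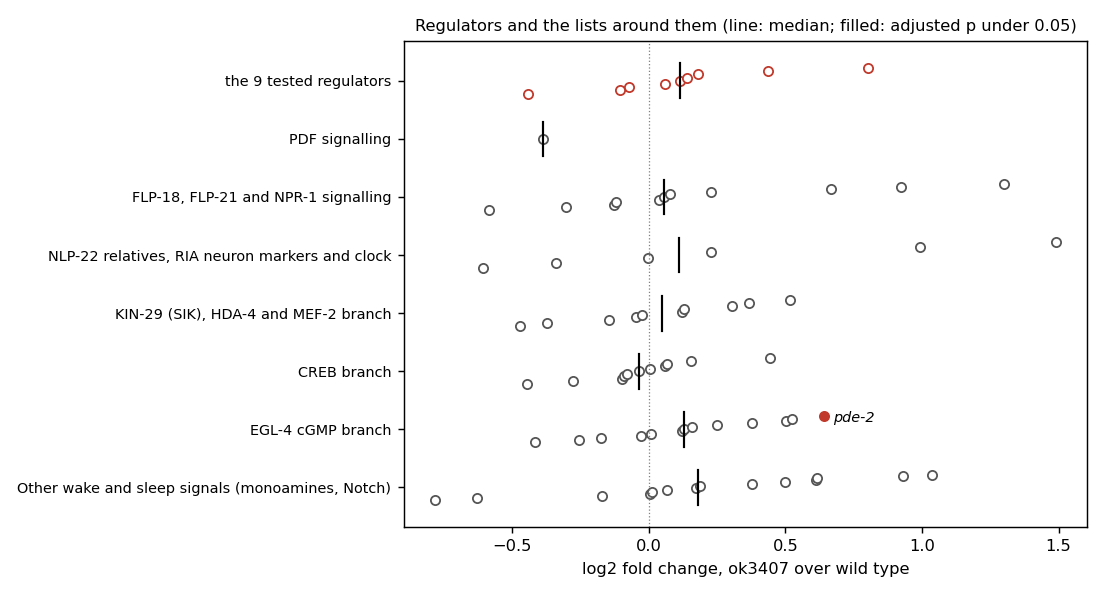
Log2 fold change of ok3407 over wild type (x axis) of the 9 tested regulators and of the genes in 7 lists of pathway partners (y axis), with 1 point a gene, filled where the adjusted p is under 0.05, and a vertical line for each median. The medians lie between -0.39 and 0.18, and pde-2 at 0.64 is the filled point.

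The last of the regulators, crh-1 (WBGene00000793, chromosome III, 11657767 to 11693554, with 7 annotated transcripts), for CREB, varied as much within groups as between them. It had 37.5, 28.5 and 26.3 CPM in ok3407, 38.7, 30.1 and 23.3 CPM in tm2655 and 38.5, 28.0 and 32.9 CPM in wild type. The 3 groups shared nearly the same range. The log2 fold change was -0.11 ± 0.21 (adjusted p = 0.812, edgeR) in ok3407 against wild type, -0.11 ± 0.21 (adjusted p = 0.998) in tm2655 against wild type and -0.00049 ± 0.21 (95% interval -0.48 to 0.48, adjusted p = 0.999) in ok3407 against tm2655. In the CREB list, with the coactivator crtc-1 and the kinases cmk-1 and ckk-1, 0 of 11 tested genes were called in any comparison.

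The remaining partners gave no calls either. The second PDF peptide gene, pdf-2, named nlp-37 in the deposited table, had 3.19, 4.03 and 3.44 CPM in ok3407, 2.80, 3.53 and 3.52 CPM in tm2655 and 4.66, 4.38 and 4.93 CPM in wild type. In CPM both alleles lay below every wild type library, as for 14.5% of all tested genes in ok3407. In tm2655, 6.47% of all tested genes were separated from wild type in either direction. In RPKM pdf-2 had 9.84, 11.9 and 11.9 in ok3407, 8.64, 10.5 and 10.5 in tm2655 and 13.1, 13.4 and 11.1 in wild type. There ok3407 overlapped wild type and tm2655 did not. The log2 fold changes of pdf-2 were -0.39 ± 0.22 (adjusted p = 0.326, edgeR) in ok3407 against wild type and -0.50 ± 0.22 (adjusted p = 0.998) in tm2655 against wild type, comparisons that share the wild type libraries. Of the NPR-1 list, with the FLP-18 receptor genes npr-4 and npr-5 and the cyclase genes gcy-35 and gcy-36, 0 of 11 were called. Of the list around NLP-22 0 of the 6 tested were called, and of the monoamine and Notch list, with the dopamine receptors and the Notch ligand gene osm-11, 0 of 14.

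Reads that span an exon junction made up a larger share in the ok3407 libraries as a whole. Of the 7 regulators with enough reads, 2 were separated upward from wild type, kin-29 and crh-1. That is near the 26.6% of all genes with enough reads. Of reads in exons, the share that spanned an exon junction was 60.6%, 63.0% and 62.8% for kin-29 in ok3407, 58.1%, 58.7% and 58.3% in tm2655 and 53.5%, 58.1% and 59.4% in wild type. For crh-1 it was 72.8%, 70.5% and 67.9% in ok3407, 65.1%, 67.5% and 66.2% in tm2655 and 57.8%, 63.2% and 66.3% in wild type. In both genes every ok3407 library was above every library of the other 2 groups (two-sided exact permutation p = 0.1 in each, the smallest that 3 against 3 can give). The same separation, in the same direction, held for 26.6% of the 8665 genes with at least 100 exon reads in every library in ok3407 against wild type, and for 28.5% in ok3407 against tm2655. Over all genes the share was 42.3% to 43.9% in ok3407, 39.1% to 40.1% in tm2655 and 38.1% to 40.5% in wild type. In ok3407 against wild type the mean shares differed by 5.14 points for kin-29 and 7.96 for crh-1, beside a median of 2.15 over the 8665 genes. Against tm2655 they differed by 3.73 and 4.13 points, beside a median of 2.30. Whether kin-29 and crh-1 moved beyond the libraries as a whole was not tested. The genes pdfr-1 and hda-4 were separated in ok3407 against tm2655 too, and in tm2655 against wild type 0 of the 7 regulators with enough reads were, where 3.52% of those genes were separated upward.

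Genes whose levels over the 9 libraries were most like each regulator are given as a description, by Pearson's r of log2 CPM, picked from 16055 genes. The closest to egl-4 were VF13D12L.3 (r = 0.98) and R31.2 (r = 0.98), and the closest to pdfr-1 were D2030.12 (r = 0.99) and B0284.2 (r = 0.99). For kin-29 they were mbl-1 (r = 0.97), the muscleblind splicing factor gene, and rgs-6 (r = 0.96), and for hda-4 the kinase gene kin-18 (r = 0.98) and C03A7.2 (r = 0.96). The nearest to flp-18 was another FMRFamide-like peptide gene, flp-16 (r = 0.92), then EEED8.2 (r = 0.91). For crh-1 they were Y106G6H.14 (r = 0.92) and btb-6 (r = 0.91), for pdf-1 C02B8.3 (r = 0.94) and Y38H6C.9 (r = 0.90), for npr-1 C48B4.7 (r = 0.96) and Y75B8A.16 (r = 0.94), and for flp-21 a gene known by its clone name alone (r = 0.93) and oac-33 (r = 0.92). These libraries share their group differences and depths, and the last pairs rest on few reads.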

How the data were processed

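RNA from whole larvae was made into stranded mRNA libraries and read in 75 paired-end cycles on a NextSeq500, per the labels' protocols. Raw counts per gene and library, in exons, introns and in total, were deposited by the authors, per the file headers, with RPKM, a p-value and corrected p-value, and a score, the signed fold change of their EDGE test. For the aligner, counter, strand setting and genome build: not given in the sources used here. Exon lengths of all 11456 tested genes with 1 transcript were multiples of 3, so lengths are coding lengths. Both deposited ends lie within 3 bases of the WBcel235 coding ends for 9 of the 10 genes, and one end of pdf-1 differs by 282. Coordinates are as deposited.

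Total gene counts, 13.8 M to 40.5 M (megareads) per library, were fitted over all 9 libraries in edgeR 4.0.16 (R 4.3.3; filterByExpr, TMM, robust quasi-likelihood, 1 term per group), with Benjamini-Hochberg adjustment over 16055 genes. An SE is the log2 fold change over the root of F, and intervals are 95%. Alternatives used RLE, upper quartile or total-size factors, no filter, a filter of 5 CPM in 3 libraries, a replicate block, DESeq2 1.42.0, limma 3.58.1 on log2(RPKM + 1) or (RPKM + 0.1), the 6 libraries compared, exon or uniquely mapped reads, and each library left out. Scripts were tested on simulated data. Tables used Python 3.11.15, pandas 2.3.3, numpy 2.4.6, scipy 1.17.1 and matplotlib 3.10.9. The labels call the replicates biological and give no batch.

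The 10 genes and the lists were chosen with earlier results of these data known. Named genes are the 10, list genes past the threshold, 2 most alike genes each and nas-38. Values of mef-2, lin-42, glr-3, glr-6, saeg-1, saeg-2, pdf-2, dpy-7, wrt-2, bli-1 and grd-10 fall outside that rule and were chosen after they were seen. The level of T01B6.1, given for its overlap with nlp-22, falls outside it too. The muscle gene tni-2, the intestinal gene opt-2 and the CREB list's atf-1 are not analysed here.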

Additional observations from a re-analysis of the deposited data

How the results depend on the processing

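DESeq2 moved the count of regulators called to 2 in ok3407 against wild type and to 1 in ok3407 against tm2655, where edgeR called 0. The other 20 alternatives called 0 of the regulators in each comparison. Over all genes it called 2033 in ok3407 against wild type, beside 1001 by edgeR, 1471 in ok3407 against tm2655, beside 645, and 4 in tm2655 against wild type, beside 1. The 6 libraries alone gave 390 in ok3407 against tm2655. Leaving out a library gave 123 to 1163 calls in ok3407 against wild type (123 without wild type replicate 3, 299 without ok3407 replicate 2, 385 without wild type replicate 1, 521 without ok3407 replicate 1) and 222 to 623 in ok3407 against tm2655. Limma-trend split the calls of ok3407 against wild type into 731 higher and 220 lower with a pseudocount of 1, and 706 and 225 with 0.1.

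Of 27 fold changes of the regulators 15 kept their sign in every fit and 12 did not, and each of the 12 was smaller than its SE. In the order total library size, limma-trend with a pseudocount of 1 and with 0.1, kin-29 became 0.15, 0.13 and 0.13 and crh-1 became 0.11, 0.090 and 0.095 in ok3407 against wild type, flp-18 became 0.0051, 0.0039 and 0.0044 in tm2655 against wild type, and pdf-1 became 0.13, 0.12 and 0.12 and crh-1 0.16, 0.13 and 0.14 in ok3407 against tm2655. In that last comparison crh-1 was also 0.0014 with upper quartile factors, 0.024 with the stricter filter, 0.0082 with the replicate block and 0.0060 with the 6 libraries alone. Total library size and limma-trend on RPKM move all genes together, with a median over all genes of 0.24, 0.17 and 0.21 in ok3407 against wild type. Relative to the median of its own fit each value of those scalings was negative, as with TMM factors, except crh-1 in ok3407 against tm2655 by limma-trend with a pseudocount of 1, at 0.013.

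Leaving out single libraries, ok3407 against wild type ranged from -0.11 to 0.31 for pdf-1, -0.13 to 0.47 for flp-21, -0.17 to 0.030 for kin-29 and -0.27 to 0.013 for crh-1. For tm2655 against wild type the ranges were -0.071 to 0.34 for pdf-1, -0.096 to 0.076 for flp-18, -0.24 to 0.012 for kin-29, -0.053 to 0.17 for egl-4 and -0.31 to 0.058 for crh-1. For ok3407 against tm2655 they were -0.080 to 0.022 for pdf-1, -0.084 to 0.16 for kin-29 and -0.17 to 0.20 for crh-1. The causes were not tested. The genes npr-1 and flp-21 did not pass the stricter filter and had no value there.

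Whether replicate numbers pair the libraries stayed undecided, since a check on 3 libraries a group is too small to tell. Same-numbered libraries of different groups correlated between -0.24 and 0.38 in their deviations, others between -0.39 and 0.32, and 5 of 9 libraries correlated best with their own number. With the number as a block 0 regulators were called in each comparison, egl-4 was -0.43 and pdfr-1 0.43 in ok3407 against wild type, and 883 genes were called. Per length, crh-1 was 20.2 TMM-scaled total reads per kilobase and megaread, beside 16.7 RPKM from exons. With 3 libraries a group and the reads of npr-1, flp-21 and nlp-22, depth limits what could be seen of those 3.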
